A study of Mus musculus with 12 samples.

Results

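Transcripts of 10 genes that encode integrin subunits or the proteins that couple integrins to actin were followed in G1E-ER4 cells, an erythroid progenitor line from the mouse. The genes were chosen by symbol among the 32699 genes measured: the α subunits Itga4, Itga5, Itga2b and Itgal, the β subunits Itgb1, Itgb3 and Itgb2, and the adaptors Fermt3, Tln1 and Vcl. In this line the transcription factor GATA-1 is fused to the estrogen receptor. Its erythroid differentiation is switched on by β-estradiol (E2), and all groups share this fusion, the same medium with erythropoietin and stem cell factor, and passages 35 to 40. Thiamet-G (TMG) inhibits O-GlcNAcase, the enzyme that removes O-GlcNAc sugars from proteins. The study asked whether disturbing O-GlcNAc turnover alters the erythroid transcript programme. The groups were TMG_E2 (10 µM TMG with 1 µM E2), E2 (1 µM E2), TMG (10 µM TMG) and Ctrl (no treatment), with 3 poly(A) RNA sequencing libraries each and 30 h of treatment where an agent was given. The labels do not say whether the 3 libraries of a group are separate cultures, and the p-values measure a spread that may be only technical.

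Integrins are αβ heterodimers of the cell surface that bind matrix proteins or receptors of neighbouring cells. Talin and kindlin bind the short cytoplasmic tail of the β subunit and switch the dimer to its high-affinity state, and vinculin strengthens the link from talin to actin. Erythroid progenitors use α4β1 and α5β1 to bind fibronectin and the macrophages of erythroblastic islands, and lose this adhesion as they mature. αIIbβ3 is the fibrinogen receptor of platelets, and αLβ2 (LFA-1) is an adhesion receptor of leukocytes.

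Of the 10 genes, 7 passed the expression filter of more than 10 CPM (counts scaled to the size of the library) in at least 2 of the 12 libraries, as did 8273 genes in all. Itga2b, Itgb3 and Itgal did not pass. The highest library values of Itga2b (7.28 CPM) and Itgb3 (7.78 CPM) lay just under the limit, and Fermt3 lay just above it, reaching 12.7 CPM. Values of the 3 genes under the limit come from a fit without the filter (16108 genes). Libraries held 17589400 to 23178700 expected counts, and 3 counts, taken as the detection floor, correspond to 0.133 to 0.180 CPM. The labels name an embryonic stem cell type, but 5 of 7 embryonic stem cell markers were at 0 in every library and the highest, Nanog, reached 0.272 CPM. All 10 erythroid markers passed the filter, with summed levels of 40800 to 45200 CPM in TMG_E2, 40300 to 43300 CPM in E2, 2170 to 2260 CPM in TMG and 1970 to 2010 CPM in Ctrl libraries. The TMG_E2 libraries differed from each other more than those of any other group, with a chi-square per degree of freedom of 8.66 to 13.1 between pairs, against 2.41 to 4.17 between pairs within the E2, TMG and Ctrl groups, and the part of this spread in the TMG_E2 results was not tested. In bulk RNA, fewer cells of a type cannot be told apart from less RNA per cell.

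Levels of different genes were compared in TPM, which are scaled for transcript length as well as depth. In Ctrl libraries Itgb1 led at 152 ± 1.34 TPM (SD, n = 3), followed by Tln1 at 112 ± 4.59, Itga4 at 72.4 ± 2.92 and Vcl at 43.0 ± 0.445 TPM. Itgb2 (14.6 ± 0.849), Itga5 (12.3 ± 0.380) and Fermt3 (7.30 ± 0.866 TPM) formed the middle, and Itga2b (2.82 ± 0.445), Itgb3 (0.230 ± 0.0265) and Itgal (0.0300 ± 0.0173 TPM) the end. The order was the same in TMG libraries, and in neither group did the ranges of neighbours overlap. In E2 libraries Tln1 stood first at 88.6 ± 3.92 TPM, then Itgb1 at 80.7 ± 1.92, Vcl at 47.5 ± 0.431 and Itga4 at 43.9 ± 1.79 TPM, and only Itga5 (5.03 ± 0.310) and Fermt3 (4.56 ± 0.935 TPM) overlapped as neighbours. In TMG_E2 libraries the ranges of Tln1 (89.2 ± 6.52) and Itgb1 (80.5 ± 5.44 TPM) overlapped, as did those of Vcl (51.5 ± 5.32) and Itga4 (42.6 ± 6.47 TPM), while Fermt3 (6.42 ± 0.358) lay above Itga5 (4.63 ± 0.270 TPM). The cells thus held Itgb1 and Itga4 transcripts far above those of Itga2b and Itgb3 per length in all 4 groups, and Itgal was near or at 0. Itga5 stood nearer to Itga2b, which had 2.46 TPM in E2 and 2.70 TPM in TMG_E2 libraries.

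**Figure D1:**
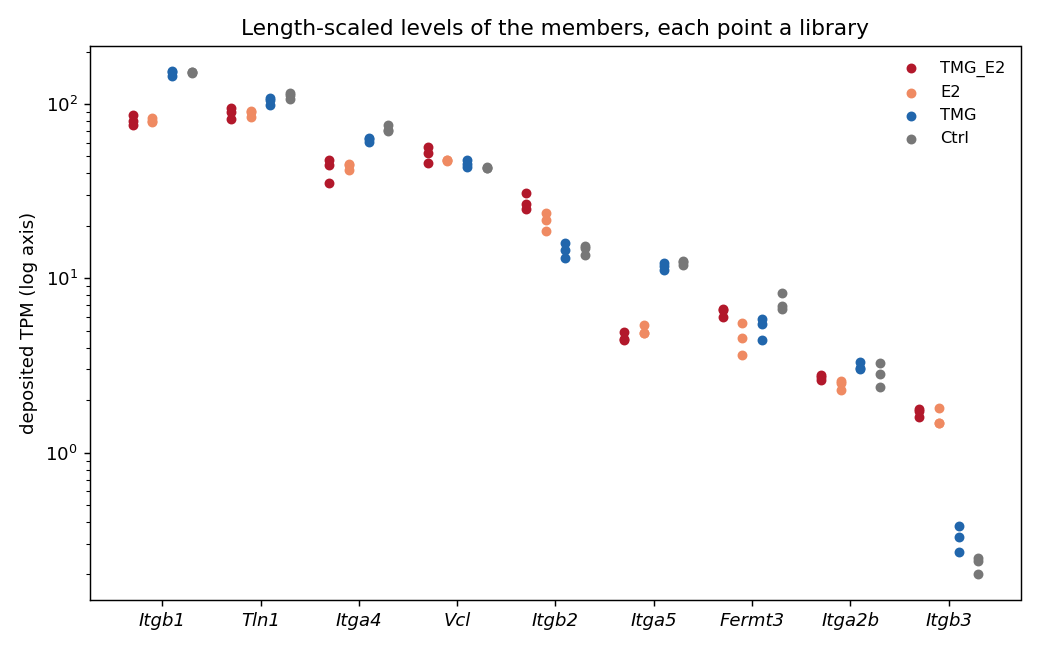
Deposited TPM (vertical log axis) of 9 genes, with 1 point per library and the groups TMG_E2, E2, TMG and Ctrl in that order within each gene. Itgal, at 0 in libraries with E2, cannot be drawn on a log axis and is left out. Itgb1 falls in its E2 and TMG_E2 points to the level of Tln1, and Itgb3 lies under 0.4 TPM without E2.

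The fibronectin receptor subunits were lower in cells given E2, with and without TMG. Itga4, the α4 chain that pairs with β1 and binds fibronectin and VCAM-1, had 300.1, 301 and 284 CPM in E2 libraries, against 433, 436 and 453 CPM in Ctrl libraries. All E2 libraries lay under all Ctrl libraries, and Itga4 fell by 0.58 ± 0.06 (SE) on the log2 scale (edgeR quasi-likelihood test with Benjamini-Hochberg adjustment over all genes tested, adjusted p = 6.05e-08). Itga5, the α5 chain of the classical fibronectin receptor, had 14.8, 15.2 and 16.7 CPM in E2 libraries, against 33.3, 32.3 and 34.0 CPM in Ctrl libraries. Itga5 fell by 1.09 ± 0.06 (adjusted p = 2.75e-11), with no overlap of the groups. Itgb1, the β1 chain that both α chains need, had 240.5, 237 and 232 CPM in E2 libraries, against 388, 396 and 386 CPM in Ctrl libraries. Itgb1 fell by 0.72 ± 0.04 (adjusted p = 3.17e-12), again without overlap.

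The same chains were lower in TMG_E2 than in TMG libraries, a comparison that shares no library with E2 against Ctrl. Itga4 had 327, 315 and 263 CPM in TMG_E2 libraries, against 396, 385 and 401 CPM in TMG libraries. It fell by 0.38 ± 0.06 on the log2 scale (adjusted p = 9.75e-06). Itga5 had 13.7, 15.5 and 14.9 CPM in TMG_E2 libraries, against 33.6, 31.5 and 32.9 CPM in TMG libraries. It fell by 1.16 ± 0.06 (adjusted p = 1.63e-11). Itgb1, the shared β chain, had 251, 236 and 238 CPM in TMG_E2 libraries, against 398, 411 and 387 CPM in TMG libraries. It fell by 0.72 ± 0.04 (adjusted p = 3.11e-12), and the groups of all 3 genes did not overlap. In this comparison 82.7% of all genes tested were called, and the share of all genes without overlap was not computed. The third TMG_E2 library was the lowest of all 12 for Itga4, at 263 CPM. Part of the Itga4 exons, 1124 bases, overlaps Cerkl on the opposite strand, which averaged at most 0.0472 CPM in any group.

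**Figure D2:**
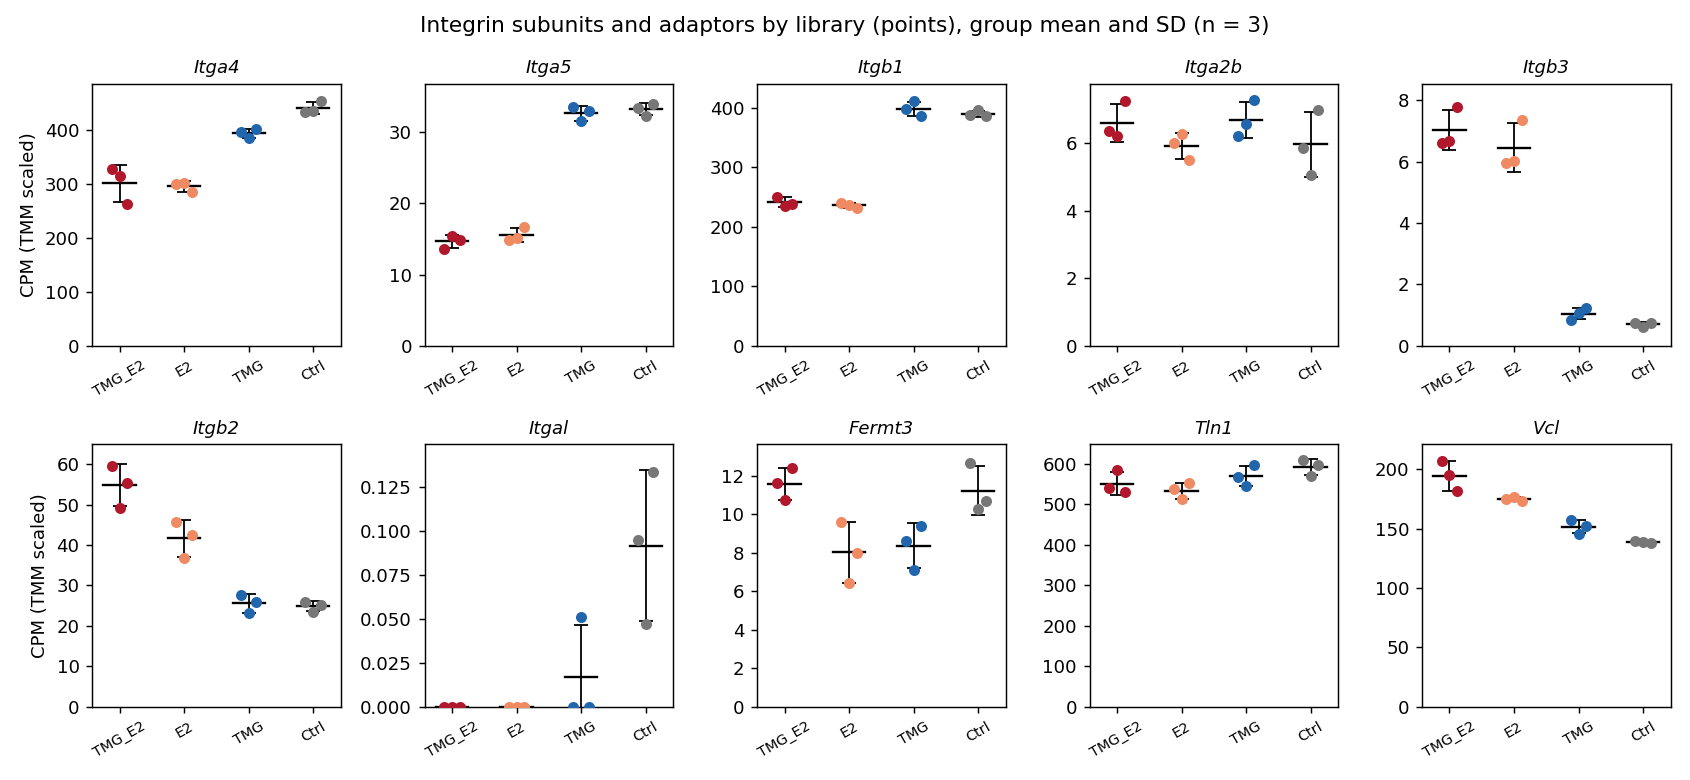
CPM, TMM scaled (vertical axes, all starting at 0), of the 10 genes in the groups TMG_E2, E2, TMG and Ctrl, with 1 point per library, the group mean as a long bar and the SD as a short one (n = 3). Itga4, Itga5 and Itgb1 are lower and Itgb3, Itgb2 and Vcl higher in the libraries with E2, while Fermt3 is highest in TMG_E2 and Ctrl libraries.

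The balance of α and β1 transcripts was followed as a ratio within each library. The summed TPM of Itga4 and Itga5 divided by that of Itgb1 was 0.606 ± 0.0143 in E2 and 0.557 ± 0.0260 in Ctrl libraries (SD, n = 3 each; exact two-sided permutation test of the log2 ratio, p = 0.1). It was 0.585 ± 0.0529 in TMG_E2 and 0.493 ± 0.0255 in TMG libraries (exact permutation p = 0.1). TMG alone gave 0.493 ± 0.0255, against 0.557 ± 0.0260 in Ctrl libraries (exact permutation p = 0.1). TMG_E2 libraries gave 0.585 ± 0.0529, against 0.606 ± 0.0143 in E2 libraries (exact permutation p = 0.9). With 3 libraries against 3, the smallest p an exact permutation test can reach is 0.1, so none of these exact tests could pass 0.05.

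Itgb3, the β3 chain of the fibrinogen and vitronectin receptors, was low without E2 and higher with it. It had 5.96, 6.03 and 7.38 CPM in E2 libraries, against 0.757, 0.613 and 0.756 CPM in Ctrl libraries. The log2 fold change was 3.17 ± 0.19 (adjusted p = 1.39e-26 over the 16108 genes of the fit without the filter, of which 53.7% were called). In TMG_E2 libraries it had 6.63, 6.68 and 7.78 CPM, against 0.853, 1.07 and 1.23 CPM in TMG libraries, a log2 fold change of 2.74 ± 0.18 (adjusted p = 2.18e-24). Every library with E2 lay above every library without it, and the libraries without it held 13 to 22 counts each. The transcript length that RSEM assigned to Itgb3, averaged over its transcripts by abundance, was 5035 bases in all libraries without E2, and 5463 to 5779 bases in those with E2.

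Itga2b, the αIIb chain (CD41) that pairs only with β3, did not follow it. It had 6.02, 6.26 and 5.51 CPM in E2 libraries, against 5.87, 5.05 and 6.98 CPM in Ctrl libraries. The groups overlapped, with a log2 fold change of -0.01 ± 0.12 (adjusted p = 0.991). TMG_E2 libraries had 6.36, 6.20 and 7.25 CPM, against 6.21, 6.58 and 7.28 CPM in TMG libraries, which overlapped too (log2 fold change -0.02 ± 0.12, adjusted p = 0.943). Per length, Itga2b stood at 1.58 ± 0.0331 times Itgb3 in TMG_E2 and 1.58 ± 0.263 times in E2 libraries (exact two-sided permutation p = 1), and no ratio was formed where Itgb3 was under 1 TPM. Of 12 megakaryocyte and platelet markers none passed the filter, and Gp1bb, Ppbp, Vwf and Clec1b were at 0 in every library. Their summed level was 9.45 to 10.9 CPM in TMG_E2, 7.22 to 9.51 in E2, 6.79 to 8.63 in TMG and 6.37 to 9.17 CPM in Ctrl libraries. Within it Gp9, the highest at up to 8.21 CPM, averaged 7.39 CPM in TMG_E2, 5.96 in E2, 1.38 in TMG and 0.835 CPM in Ctrl libraries. Gp1ba, Gp5 and Pf4 went the other way, at 1.39, 0.28 and 0.378 CPM in E2, against 3.08, 2.56 and 1.26 CPM in Ctrl libraries. They averaged 1.67, 0.484 and 0.477 CPM in TMG_E2, against 2.37, 1.96 and 2.04 CPM in TMG libraries. Gp6, Selp and Treml1 reached at most 0.216 CPM. The part of these markers in the Itgb3 values was not tested.

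Itgb2, the β2 chain of the leukocyte integrins, was higher with E2. It had 45.7, 36.8 and 42.4 CPM in E2 libraries, against 25.8, 23.5 and 25.3 CPM in Ctrl libraries, without overlap. The log2 fold change was 0.74 ± 0.09 (adjusted p = 4.21e-07). In TMG_E2 libraries it had 59.6, 49.2 and 55.4 CPM, against 27.6, 23.1 and 25.9 CPM in TMG libraries, a log2 fold change of 1.10 ± 0.09 (adjusted p = 1.66e-09). Itgal, its αL partner in LFA-1, had 0 counts in each E2 and TMG_E2 library. TMG libraries held 0, 1 and 0 counts and Ctrl libraries 2, 1 and 3, all at or under the floor of 3, so that no fold is given. The αM chain Itgam, another partner of β2, averaged 2.31 CPM in TMG_E2, 1.77 in E2, 2.25 in TMG and 3.05 CPM in Ctrl libraries and did not pass the filter. Neutrophil and macrophage markers were near 0, the highest being Lyz2 at 0.196 CPM, and 5 of 8 lymphoid markers were at 0 in every library, with Lck the highest at 1.25 CPM. The mast cell markers, 3 of 7 past the filter, summed to 0.308 to 0.618 CPM in TMG_E2, 0.270 to 0.878 in E2, 79.2 to 95.3 in TMG and 79.6 to 104 CPM in Ctrl libraries, led by Il1rl1 at up to 72.3 CPM, with Mcpt8 and Tpsb2 at 0. They were thus low where Itgb2, Itgb3 and Vcl were high, and equally where Itga4, Itga5 and Itgb1 were low. The part of the mast cell markers in the integrin values was not tested.

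The adaptors did not move in 1 direction with E2. Tln1 (talin-1) had 537, 512 and 552 CPM in E2 libraries, against 609.7, 569.5 and 596 CPM in Ctrl libraries. It fell by 0.15 ± 0.05 on the log2 scale (adjusted p = 0.00598), with groups that did not overlap. In TMG_E2 libraries it had 539, 584 and 530.2 CPM, against 567, 546 and 597 CPM in TMG libraries, which overlapped (log2 fold change -0.05 ± 0.05, adjusted p = 0.334). With scaling by library size alone, this last change was -0.15 and was called (adjusted p = 0.00801). Vcl (vinculin) had 175, 177 and 173 CPM in E2 libraries, against 139, 139 and 138 CPM in Ctrl libraries. Its log2 fold change was 0.34 ± 0.04 (adjusted p = 1.48e-06). It had 207, 195 and 181 CPM in TMG_E2 libraries, against 157, 146 and 152 CPM in TMG libraries, a log2 fold change of 0.36 ± 0.04 (adjusted p = 6.44e-07). The sources used here do not give the strand setting of the quantification. Of Vcl, 2090 exon bases overlap Ap3m1 on the opposite strand, which averaged 121 CPM in TMG_E2, 116.9 in E2, 79.25 in TMG and 83.34 CPM in Ctrl libraries, so that Vcl is uncertain to that extent. Of Tln1, 360 exon bases overlap Creb3, which averaged at most 15.17 CPM in any group.

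Fermt3 encodes kindlin-3, the kindlin of blood cells. It had 9.62, 6.45 and 7.99 CPM in E2 libraries, against 12.7, 10.3 and 10.7 CPM in Ctrl libraries, without overlap. It fell by 0.49 ± 0.13 on the log2 scale (adjusted p = 0.0023). With TMG present the sign was the opposite, with 11.6, 10.7 and 12.4 CPM in TMG_E2 libraries, against 8.63, 7.09 and 9.41 CPM in TMG libraries. There the log2 fold change was 0.47 ± 0.13 (adjusted p = 0.00348), and the groups did not overlap. The Fermt3 libraries above 10 CPM were all TMG_E2 or Ctrl libraries, so that its passing the filter is tied to this pattern. In the fit without the filter the 2 changes were -0.50 (adjusted p = 6.23e-05) and 0.47 (adjusted p = 0.000167).

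Counted together, 7 of the 7 genes past the filter were called in E2 against Ctrl, 2 higher and 5 lower, where 82.7% of all genes tested were called (41.5% higher, 41.2% lower). In TMG_E2 against TMG, 6 of 7 were called, 3 higher and 3 lower, where again 82.7% of genes were called (40.9% higher, 41.8% lower). Both shares are near the background, so a call alone says little about these genes. Scaling by library size alone moved the median log2 fold change of all genes to -0.10 in E2 against Ctrl and -0.11 in TMG_E2 against TMG, and under that scaling all 7 genes kept their directions.

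**Figure D3:**
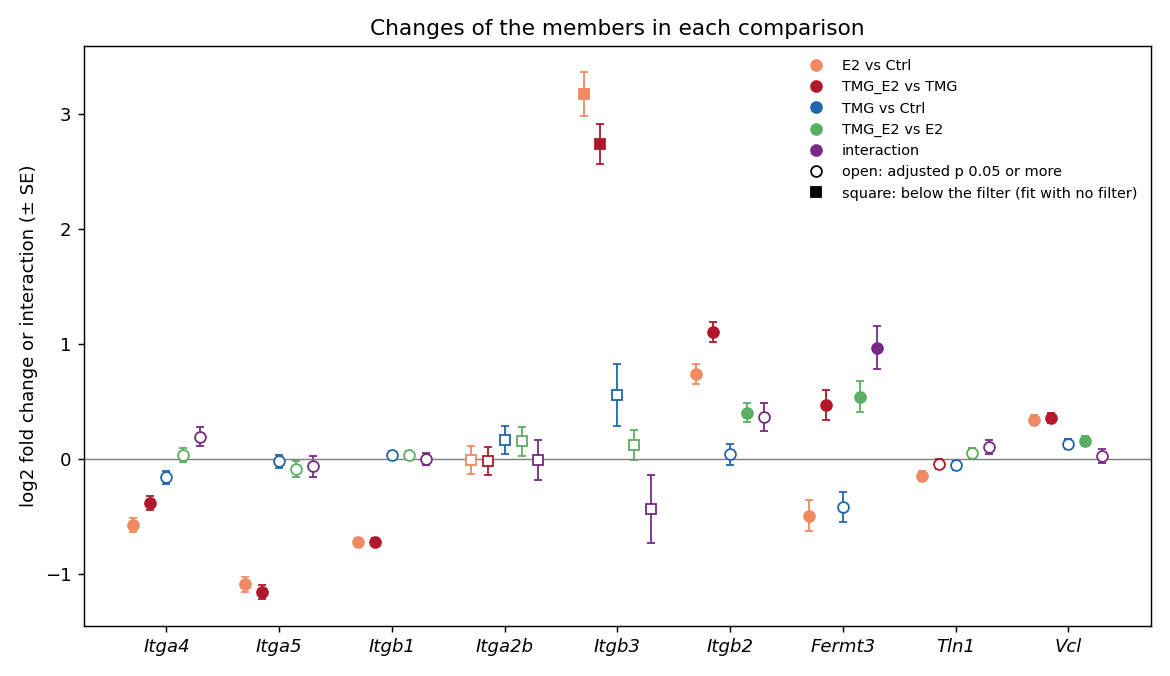
Log2 fold change or interaction with its SE (vertical axis) of 9 genes in the 5 comparisons, filled where the adjusted p was under 0.05 and square for genes from the fit without the filter. Itgal is left out because it was at or under 3 counts in every library. Fermt3 is the only filled interaction point, at 0.96 ± 0.19.

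The promoters of members that moved together were set side by side. RefSeq (GRCm38.p6) gave the start of 7 of the 10 genes, and the 250 bases before it were searched on both strands for the GATA core GATAA, the CACCC box bound by KLF1, the ETS core GGAAG and the RUNX core TGTGGT. These motifs occur in 22.6%, 52%, 64.1% and 14% of 32851 promoters of the same length. The 3 genes of the fibronectin receptors are shown first, since they fell together with E2, then Vcl, which rose with E2. Fermt3 comes last, since a difference between its TMG changes with and without E2 was called. That call was lost in 6 of 18 other settings. Each sequence is printed 5′ to 3′ on the gene's own strand, ending at the base before the start used, with every motif match in capitals. They lie at chr2:79255176-79255425 (+) for Itga4, chr15:103366792-103367041 (-) for Itga5, chr8:128685404-128685653 (+) for Itgb1, chr14:20929148-20929397 (+) for Vcl and chr19:7019470-7019719 (-) for Fermt3. For Vcl the start used lies downstream of the first base of the gene in RefSeq, 20929383. The last bases of the Vcl window therefore lie inside the gene.
Itga4: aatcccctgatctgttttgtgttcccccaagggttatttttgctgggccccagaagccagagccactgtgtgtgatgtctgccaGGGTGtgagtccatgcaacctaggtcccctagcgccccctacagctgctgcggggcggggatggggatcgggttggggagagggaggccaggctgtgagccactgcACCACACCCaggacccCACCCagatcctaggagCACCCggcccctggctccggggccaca
Itga5: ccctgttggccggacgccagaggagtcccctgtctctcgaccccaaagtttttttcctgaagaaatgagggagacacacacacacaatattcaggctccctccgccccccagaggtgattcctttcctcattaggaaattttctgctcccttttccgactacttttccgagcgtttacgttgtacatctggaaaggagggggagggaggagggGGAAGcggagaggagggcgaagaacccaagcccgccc
Itgb1: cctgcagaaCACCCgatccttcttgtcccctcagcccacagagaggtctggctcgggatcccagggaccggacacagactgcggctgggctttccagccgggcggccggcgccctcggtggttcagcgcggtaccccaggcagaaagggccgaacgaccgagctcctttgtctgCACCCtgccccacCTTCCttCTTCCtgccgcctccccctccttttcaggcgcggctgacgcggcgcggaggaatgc
Vcl: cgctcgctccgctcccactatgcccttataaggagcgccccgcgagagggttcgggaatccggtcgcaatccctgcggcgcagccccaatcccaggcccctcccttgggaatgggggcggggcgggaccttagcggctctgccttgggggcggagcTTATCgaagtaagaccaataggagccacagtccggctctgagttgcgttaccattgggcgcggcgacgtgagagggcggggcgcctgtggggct
Fermt3: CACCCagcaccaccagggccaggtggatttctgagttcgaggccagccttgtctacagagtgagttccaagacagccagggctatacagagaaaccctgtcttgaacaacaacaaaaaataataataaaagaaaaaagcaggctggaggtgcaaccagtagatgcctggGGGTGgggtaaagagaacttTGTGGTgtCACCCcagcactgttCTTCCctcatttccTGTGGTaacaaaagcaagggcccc

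The Itga4 window held 4 CACCC matches and 1 TGTGGT match, whose reverse complement ACCACA overlaps a CACCC. The Itgb1 window held 2 CACCC and 2 GGAAG matches, and the Itga5 window a single GGAAG. No motif was thus shared by all 3 windows. Vcl was the only gene of the 7 with a GATAA match, read as TTATC on the printed strand. Fermt3 held 3 CACCC, 1 GGAAG and 2 TGTGGT matches. Of the windows not printed, Itga2b held 4 GGAAG matches and Tln1 held 1 CACCC and 2 GGAAG matches. The start used for Itga5 lay in no GENCODE transcript, whereas the other 6 did. A match is a stretch of letters and not a measured site.

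TMG alone left the genes past the filter without a call. In TMG against Ctrl, 0 of 7 were called by edgeR and 0 by DESeq2, where 5.15% of genes tested were called by edgeR, and 3 of 7 had an unadjusted p under 0.05, where 18.9% of genes did. These 3 were Fermt3, Vcl and Itga4, whose libraries did not overlap between the groups, and the share of all genes without overlap was not computed. Fermt3 had 8.63, 7.09 and 9.41 CPM in TMG libraries, against 12.7, 10.3 and 10.7 CPM in Ctrl libraries (log2 fold change -0.42 ± 0.13, adjusted p = 0.0731). Vcl averaged 152 ± 5.76 CPM in TMG and 139 ± 0.907 CPM in Ctrl libraries (log2 fold change 0.13 ± 0.04, adjusted p = 0.097). Itga4 averaged 394 ± 8.42 CPM in TMG and 441 ± 11 CPM in Ctrl libraries (log2 fold change -0.16 ± 0.06, adjusted p = 0.126). These values passed in some other fits: Fermt3 (0.0128) and Itga4 (0.0329) without the filter, where 3.52% of genes were called, and Itga4 (0.00336), Fermt3 (0.0294) and Vcl (0.0309) with only these 2 groups in the fit. For the rest, log2 fold changes lay between -0.05 ± 0.05 for Tln1 and 0.04 ± 0.09 for Itgb2, with overlapping groups. Itgb3 stood at 1.05 ± 0.190 CPM in TMG and 0.709 ± 0.0827 CPM in Ctrl libraries, without overlap but not called (log2 fold change 0.55 ± 0.27, adjusted p = 0.375), and Itga2b at 6.69 ± 0.544 CPM in TMG and 5.97 ± 0.970 CPM in Ctrl libraries (log2 fold change 0.16 ± 0.12, adjusted p = 0.681).

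In cells given E2, Itgb2, Fermt3 and Vcl were higher with TMG, Vcl less stably. In TMG_E2 against E2, 3 of 7 genes were called, all higher, where 12.8% of genes tested were called (5.61% higher, 7.14% lower). Itgb2 averaged 54.7 ± 5.22 CPM in TMG_E2 and 41.6 ± 4.50 CPM in E2 libraries (log2 fold change 0.40 ± 0.08, adjusted p = 0.00425). The lowest TMG_E2 library (49.2 CPM) lay above the highest E2 library (45.7 CPM), and the call held in all 13 other settings tried. Fermt3 averaged 11.6 ± 0.825 CPM in TMG_E2 and 8.02 ± 1.59 CPM in E2 libraries (log2 fold change 0.54 ± 0.13, adjusted p = 0.0134), without overlap. Its call was lost without the second E2 library, which at 6.45 CPM was the lowest of the 12 (log2 fold change 0.39, adjusted p = 0.0771). Vcl averaged 194 ± 12.7 CPM in TMG_E2 and 175 ± 1.76 CPM in E2 libraries (log2 fold change 0.15 ± 0.04, adjusted p = 0.0273). That call was lost without the first, the second or the third E2 library (adjusted p = 0.0639, 0.0705 and 0.0897), the first or the second TMG_E2 library (0.119 and 0.0571), with scaling by library size alone (0.0675) and with only these 2 groups in the fit (0.0932).

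The fibronectin receptor chains were not called in TMG_E2 against E2. Itga4 averaged 302 ± 34.3 CPM in TMG_E2 and 295 ± 9.46 CPM in E2 libraries (log2 fold change 0.03 ± 0.06, adjusted p = 0.777). Without the third TMG_E2 library, which had 263 CPM, its log2 fold change was 0.12 and was called (adjusted p = 0.0403). Itga5 averaged 14.7 ± 0.921 CPM in TMG_E2 and 15.6 ± 0.993 CPM in E2 libraries (log2 fold change -0.09 ± 0.07, adjusted p = 0.443). Itgb1, their common β chain, averaged 242 ± 8.29 CPM in TMG_E2 and 237 ± 4.10 CPM in E2 libraries (log2 fold change 0.03 ± 0.04, adjusted p = 0.625). Tln1 averaged 551 ± 28.8 CPM in TMG_E2 and 534 ± 19.9 CPM in E2 libraries (log2 fold change 0.05 ± 0.05, adjusted p = 0.546). Itgb3 (log2 fold change 0.12 ± 0.13, adjusted p = 0.682) and Itga2b (0.15 ± 0.12, adjusted p = 0.618) were not called in the fit without the filter, where 7.65% of genes were. The groups of all 6 genes overlapped, and the share of all genes with overlap was not computed.

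Whether the TMG difference depended on E2 was tested as an interaction, the log2 difference of TMG_E2 from E2 minus that of TMG from Ctrl. Fermt3 was the only called gene of the 7, at 0.96 ± 0.19 (adjusted p = 0.0268), where 0.931% of genes tested were called. It passed the filter only through TMG_E2 and Ctrl libraries, the groups that raise the interaction, so this call is not independent of the filter. Without the filter, on the same libraries, the interaction was 0.97 (adjusted p = 2.73e-05). The 4 comparisons share libraries with it and with each other, so the values stand side by side: Fermt3 differed by 0.54 ± 0.13 in TMG_E2 against E2 and by -0.42 ± 0.13 in TMG against Ctrl. Its interaction kept its sign in all 18 other settings, from 0.82 to 1.12, but missed the threshold without any of 6 libraries. These were the first and the third Ctrl (adjusted p = 0.066 and 0.0603), the first and the second TMG (0.07 and 0.0745) and the second and the third E2 library (0.0704 and 0.0671). Of Fermt3, 89 exon bases overlap Trpt1 on the opposite strand, which averaged at most 3.35 CPM in any group. The interaction of Itgb2 was 0.36 ± 0.12 and not called (adjusted p = 0.215), though it was in the fit without the filter (0.0371), where 1.11% of genes were called. That of Itga4 was 0.19 ± 0.08 (adjusted p = 0.377), and without the third TMG_E2 library it was 0.28 and called (adjusted p = 0.0102). The others ranged from -0.07 ± 0.09 for Itga5 to 0.10 ± 0.06 for Tln1.

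Other genes of the pathway were read from 4 lists of integrin subunits, activation regulators, focal adhesion proteins and ligands. Of 19 other integrin subunits, Itgav alone passed the filter. Itgav, the αV chain that can pair with β1 or β3, averaged 24.5 ± 0.928 CPM in E2 and 21.8 ± 1.79 CPM in Ctrl libraries (log2 fold change 0.17 ± 0.07, adjusted p = 0.0319). Its groups overlapped and this call was lost with library size alone (0.368), in DESeq2 (0.0548) and without the first or the second E2 (0.0944 and 0.0667) or the second or the third Ctrl library (0.158 and 0.0781). In TMG_E2 it averaged 26.9 ± 1.38 CPM, against 22.1 ± 1.26 CPM in TMG libraries (log2 fold change 0.28 ± 0.07, adjusted p = 0.00119). Itgb7, another β partner of α4, was under the filter at 0.53 CPM in E2 and 4.95 CPM in Ctrl libraries (log2 fold change -3.22 ± 0.22, adjusted p = 6.01e-23 in the fit without the filter), and at 0.67 CPM in TMG_E2 and 4.69 CPM in TMG libraries.

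Of 26 activation regulators, 15 passed the filter, and in E2 against Ctrl 7 rose and 6 fell, where 82.7% of all genes tested were called, 41.5% higher and 41.2% lower (median log2 fold change 0.06, against -0.00076 over all genes tested). Flna, encoding filamin A, which competes with talin for the β tail and crosslinks actin, averaged 18.2 ± 2.78 CPM in E2 and 454 ± 8.86 CPM in Ctrl libraries. It fell by 4.64 ± 0.08 on the log2 scale (adjusted p = 3.37e-18). Apbb1ip encodes RIAM, the Rap1 effector that recruits talin, and averaged 56.7 ± 3.21 CPM in E2 and 141 ± 3.60 CPM in Ctrl libraries. It fell by 1.32 ± 0.04 (adjusted p = 1.74e-14), and Sipa1l1, a GTPase activator of Rap, fell by 0.69 ± 0.05 (adjusted p = 6.97e-10). Dok1, an adaptor whose PTB domain competes with talin, had a log2 fold change of 1.66 ± 0.05 (adjusted p = 3.51e-15), Rapgef6, a Rap exchange factor, one of 0.78 ± 0.06 (adjusted p = 4.71e-10) and Cib1, known to bind the αIIb tail, one of 0.65 ± 0.05 (adjusted p = 2.41e-09). In TMG_E2 against TMG, 8 rose and 5 fell, where 82.7% of all genes were called (median 0.24, against -0.01 over all genes), with Flna falling by 4.79 ± 0.08, Apbb1ip by 1.04 ± 0.04 and Sipa1l1 by 0.71 ± 0.05, and Dok1, Rapgef6 and Cib1 at 1.54 ± 0.05, 0.89 ± 0.06 and 0.66 ± 0.05.

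In TMG_E2 against E2, 3 of these 15 regulators rose and 2 fell, where 5.61% of all genes tested were called higher and 7.14% lower (median 0.04, against 0.00039 over all genes). Fyb, encoding the adaptor ADAP that promotes integrin activation in T cells and platelets, averaged 101 ± 7.34 CPM in TMG_E2 and 75.1 ± 4.63 CPM in E2 libraries (log2 fold change 0.43 ± 0.05, adjusted p = 0.000105). Apbb1ip averaged 66.5 ± 1.26 CPM in TMG_E2 and 56.7 ± 3.21 CPM in E2 libraries (log2 fold change 0.23 ± 0.05, adjusted p = 0.00436). Rap1a, a small GTPase upstream of talin, had a log2 fold change of 0.17 ± 0.04 (adjusted p = 0.0117), lost without the first TMG_E2 (0.0507) or the third E2 library (0.0589) and with only these 2 groups in the fit (0.0606). In TMG against Ctrl 1 regulator rose and 0 fell, where 5.15% of all genes were called (median -0.02, against 0.0028 over all genes). This was Fyb, with 108 ± 2.07 CPM in TMG and 92.8 ± 2.88 CPM in Ctrl libraries (log2 fold change 0.21 ± 0.05, adjusted p = 0.0235), a call lost without any 1 of the 6 libraries (adjusted p = 0.0576 to 0.103). Apbb1ip was the regulator with a called interaction, at 0.27 ± 0.06 (adjusted p = 0.0482), where 0.931% of all genes were called.

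**Figure D4:**
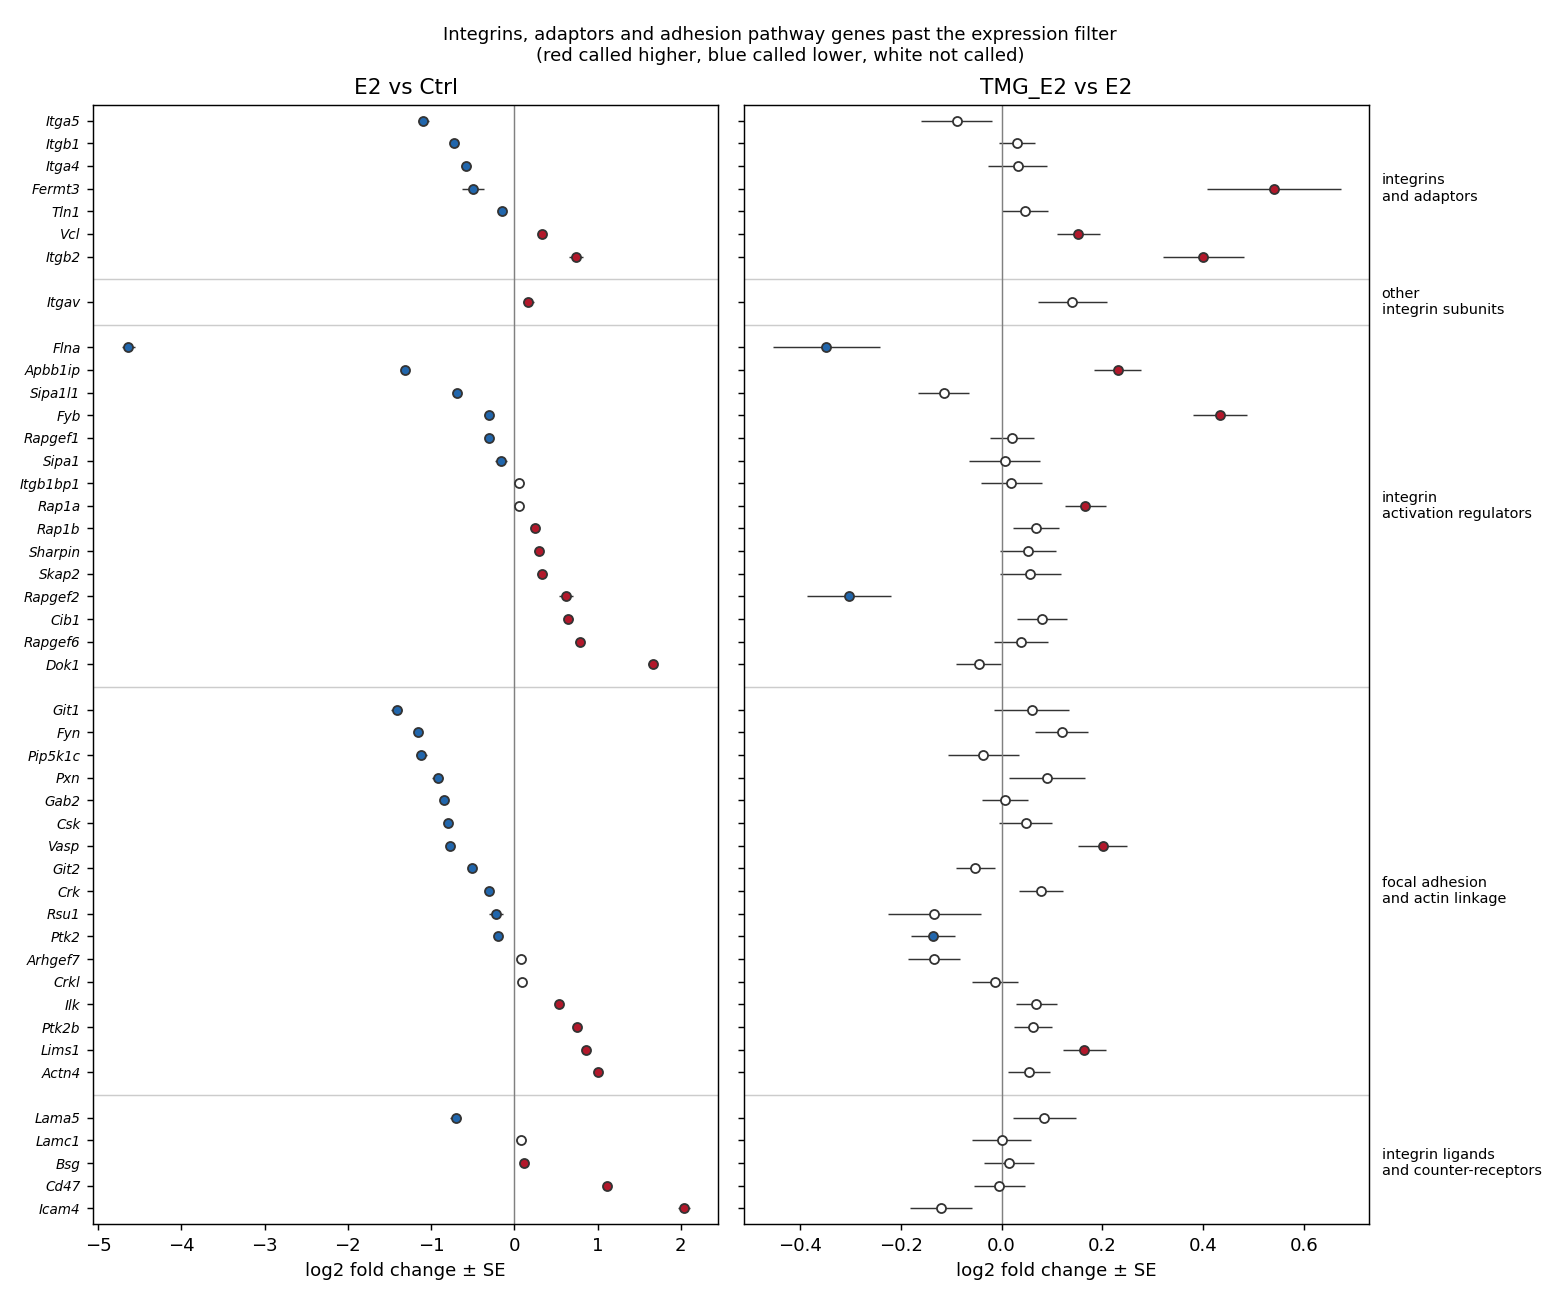
Log2 fold change with its SE (horizontal axes) of the 7 genes past the filter and of the list genes past it, in E2 against Ctrl on the left and TMG_E2 against E2 on the right, where the axis is shorter. Red marks genes called higher, blue genes called lower and white genes not called. Flna lies farthest from 0 on the left at -4.64, and Fermt3, Fyb and Itgb2 lie farthest to the right on the right-hand side.

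Of 36 focal adhesion and actin linkage genes, 17 passed the filter, and in E2 against Ctrl 4 rose and 11 fell, where 41.5% of all genes tested were called higher and 41.2% lower, 82.7% in all (median log2 fold change -0.31, against -0.00076 over all genes tested). Git1, a scaffold that binds paxillin, averaged 23.9 ± 1.59 CPM in E2 and 63.5 ± 1.70 CPM in Ctrl libraries (log2 fold change -1.41 ± 0.07, adjusted p = 1.74e-12). Fyn, a Src family kinase, fell by 1.15 ± 0.05 (adjusted p = 3.09e-13), and Pip5k1c, whose lipid product recruits talin and vinculin, by 1.12 ± 0.07 (adjusted p = 3.96e-11). The rising genes included Actn4, the actin crosslinker α-actinin-4, with 547 ± 8.63 CPM in E2 and 272 ± 4.52 CPM in Ctrl libraries (log2 fold change 1.01 ± 0.04, adjusted p = 2.97e-13). Lims1, encoding PINCH-1 of the integrin-linked kinase complex, had a log2 fold change of 0.86 ± 0.04 (adjusted p = 6.29e-12) and the kinase Ptk2b one of 0.76 ± 0.04 (adjusted p = 5.52e-12). In TMG_E2 against TMG 4 rose and 10 fell, where 40.9% of all genes were called higher and 41.8% lower (median -0.25, against -0.01), with Actn4 at 1.10 ± 0.04, Lims1 at 0.96 ± 0.04, Ilk at 0.62 ± 0.04, Git1 at -1.32 ± 0.07, Pip5k1c at -1.21 ± 0.07 and Fyn at -0.94 ± 0.05.

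In TMG_E2 against E2, 2 focal adhesion genes rose and 1 fell, where 12.8% of all genes tested were called (median 0.05, against 0.00039). Vasp, an actin elongation factor, averaged 156 ± 11.2 CPM in TMG_E2 and 135 ± 2.11 CPM in E2 libraries (log2 fold change 0.20 ± 0.05, adjusted p = 0.0121). Lims1 had a log2 fold change of 0.16 ± 0.04 (adjusted p = 0.0174), lost without the second E2 (0.076) or the second TMG_E2 library (0.0588) and with only these 2 groups in the fit (0.0508). Ptk2, encoding focal adhesion kinase, had one of -0.14 ± 0.04 (adjusted p = 0.0489), lost in 10 of 13 other settings, among them the fit without the filter (0.0968) and DESeq2 (0.106). In TMG against Ctrl 1 rose and 0 fell, where 5.15% of all genes were called (median -0.01, against 0.0028). It was Ptk2b, the FAK relative PYK2, with 84.2 ± 3.17 CPM in TMG and 72.8 ± 0.933 CPM in Ctrl libraries (log2 fold change 0.21 ± 0.04, adjusted p = 0.00554). In the interaction, 0 of the 17 were called by edgeR and 0 by DESeq2, where edgeR called 0.931% of all genes. Of the 17, 3 had an unadjusted p under 0.05, and the share of all genes that did is not given here.

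Of 26 ligands and counter-receptors, 5 passed the filter, and in E2 against Ctrl 3 rose and 1 fell, where 82.7% of all genes tested were called (median log2 fold change 0.12, against -0.00076 over all genes tested). Icam4, the erythroid adhesion molecule that binds α4β1 and αV integrins, averaged 38.1 ± 1.65 CPM in E2 and 9.28 ± 0.375 CPM in Ctrl libraries (log2 fold change 2.04 ± 0.07, adjusted p = 2.78e-14). Cd47, a surface partner of β3 integrins and the ligand of SIRPα, averaged 298 ± 17.0 CPM in E2 and 138 ± 4.05 CPM in Ctrl libraries (log2 fold change 1.11 ± 0.05, adjusted p = 1.73e-12). Lama5, the laminin α5 chain, fell by 0.71 ± 0.06 (adjusted p = 1e-08), and Bsg, encoding basigin, had a log2 fold change of 0.12 ± 0.05 (adjusted p = 0.0319). The Bsg call was lost with library size alone (0.666), without the second E2 library (0.176) and without any Ctrl library (0.057 to 0.0784). In TMG_E2 against TMG 2 rose and 1 fell, where 82.7% of all genes were called (median 0.11, against -0.01), Icam4 at 2.03 ± 0.07, Cd47 at 1.08 ± 0.05 and Lama5 at -0.71 ± 0.06. In TMG_E2 against E2, in TMG against Ctrl and in the interaction, 0 of the 5 were called by edgeR, 0 by DESeq2, and 0 had an unadjusted p under 0.05. Of all genes, edgeR called 12.8%, 5.15% and 0.931% there.

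Across the 12 libraries, each gene past the filter was matched to the gene whose log2 CPM profile, centred on its own mean, lay nearest by root mean square difference. For Itgb1 this was Pnpt1 (0.0292), for Tln1 Scaf4 (0.0306), for Vcl Ncbp3 (0.0392), for Itga5 Nol9 (0.0453) and for Itga4 Ccdc14 (0.0499). Itgb2 was nearest to Fdft1 (0.109) and Fermt3 to Adnp2 (0.226), so that Fermt3 had the most distant nearest neighbour. Fermt3 also had the lowest mean CPM of the 7 genes in every group, and the part of count noise in its distance was not tested. Among the 7 genes themselves, Itga4 and Itgb1 were nearest to each other (0.155), and Fermt3 was nearest to Tln1 (0.267).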

How the data were processed

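RNA was measured by paired-end poly(A) sequencing of 12 libraries in 4 groups of 3, grouped and numbered by their titles. Per the submitters' processing notes and design text, RSEM 1.2.22 aligned and quantified the read pairs on GRCm38 after a FastQC 0.11.2 check, and the authors tested genes in EdgeR 3.14.0. The deposited tables, per the file headers, list 32699 genes with an RSEM expected count, a TPM and an FPKM each. An expected count as deposited is an estimate, in which reads that match several genes are split among them. Deposited TPM values, which the authors' RSEM run scaled by length, served here for levels of different genes, and deposited FPKM values for an alternative order.

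Expected counts were rounded and fitted in edgeR 4.0.16 (R 4.3.3) with TMM scaling, genes over 10 CPM in at least 2 libraries, 1 mean per group over all 12 libraries, a quasi-likelihood test and Benjamini-Hochberg adjustment over these 8273 genes (threshold 0.05). CPM in the text are TMM scaled, and the SE was computed from the F statistic. Genes under the filter take values from the same fit without it. The 10 genes and the lists were chosen with earlier results of these data known, so no pattern here is independent support for those. From each pathway list the text names the 3 highest and 3 lowest called genes by fold change with E2, and the 3 called genes of smallest p in the other comparisons. Itgam and Itgb7 fall outside this rule and were chosen after seeing their values. Alternatives were other scalings, filters, DESeq2 1.42.0, only the groups compared, a replicate block and leaving out each library.

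All replicate pairs differed beyond sampling noise (chi-square over its degrees of freedom, 8.66 to 13.1 in TMG_E2 and 2.41 to 4.17 in the other groups). The replicate numbers were checked as a pairing, by correlating the deviations of same-numbered libraries from their group means. The correlations were 0.108, 0.278 and 0.112 in E2 against Ctrl, 0.285, 0.182 and 0.201 in TMG_E2 against E2 and 0.525, 0.149 and 0.412 in TMG_E2 against TMG, all over 0.1. Libraries with different numbers were not correlated, so these values have no reference. Whether the numbers pair libraries is therefore not known, and no label states it. The main tests used no replicate block, and the block was run as an alternative only. Promoter windows and positions come from RefSeq and GENCODE on GRCm38.p6, the build of the files. Protein sequences were not used here. Results for some genes are not given here.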

Additional observations from a re-analysis of the deposited data

Results flagged for a closer look

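The difference made by TMG with E2 differed from that made by TMG without E2 for Fermt3 and for Apbb1ip, by the test of the difference itself. For Fermt3 (kindlin-3) the interaction was 0.96 on the log2 scale (edgeR, adjusted p = 0.0268), with 11.6 ± 0.825 CPM in TMG_E2, 8.02 ± 1.59 in E2, 8.38 ± 1.18 in TMG and 11.2 ± 1.28 CPM in Ctrl libraries (SD, n = 3 each). Fermt3 passed the filter only through TMG_E2 and Ctrl libraries, so this call is not independent of the filter. Without the filter, on the same libraries, its interaction was 0.97 (adjusted p = 2.73e-05). The Fermt3 call was lost in 6 of 18 other settings, with adjusted p up to 0.0745. For Apbb1ip (RIAM) the interaction was 0.27 (adjusted p = 0.0482), with 66.5 ± 1.26 CPM in TMG_E2, 56.7 ± 3.21 in E2, 137 ± 4.61 in TMG and 141 ± 3.60 CPM in Ctrl libraries. The Apbb1ip call was lost in 13 of 18 other settings, with adjusted p from 0.0126 to 0.139, and the log2 value stayed between 0.23 and 0.31. Calls were lost without any 1 library except the third TMG_E2 library, and with scaling by library size alone (0.053) or the edgeR default filter (0.0635).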

How the results depend on the processing

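The counts of called genes in E2 against Ctrl and TMG_E2 against TMG, and the number of the 7 integrin and adaptor genes called there, stayed within 1.5 times under every alternative run. For the 7 genes and the list genes named in each comparison, 952 recomputed values kept direction and call, 60 lost the call, 12 gained it and 17 changed sign. TMG against Ctrl called 426 genes (249 higher, 177 lower; 179 and 232 with library size alone), 768 with only these groups in the fit, and 198 to 257 without 1 library, so each library left out lowered it by over 1.5 times. Of the 7 genes it called 0, but 2 without the filter and 3 with only these groups, and 0 without any 1 library. TMG_E2 against E2 called 1055 genes (464 higher, 591 lower; 348 and 764 with library size alone, 566 and 531 with RLE size factors), 539 with only these groups and 659 to 1159 without 1 library, the low values being 685 without E2 replicate 2 and 659 without E2 replicate 3, and of the 7 genes 3, or 1 to 4 without 1 library, with 1 without E2 replicate 2. The interaction called 77 genes, 178 without the filter, 48 with the edgeR default filter and 15 to 161 without 1 library, and of the 7 genes 1, 2 without the filter and 0 to 2 without 1 library.

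With replicate number as a block, TMG against Ctrl called 675 genes and 2 of the 7 (Fermt3, adjusted p = 0.0125, and Vcl, 0.0497). The interaction called 171 genes and 2 of the 7 (Fermt3, 0.000989, and Itgb2, 0.0111). Same-numbered libraries of TMG and Ctrl correlated at 0.0876, 0.0295 and 0.188, and whether they are paired is not known. In the other 3 comparisons the block changed no call of the 7 genes.

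Sign changes were all in values near 0 that were not called. The interaction of Itgb1 was -0.00095, against 0.010703 with RLE size factors, 0.0042229 with the edgeR default filter, 0.010986 in DESeq2 and -0.034115 to 0.021502 without 1 library. Without 1 library, Itgb2 ranged from -0.024914 to 0.10667 and Itga5 from -0.044279 to 0.0025265 in TMG against Ctrl, Itga4 from -0.034371 to 0.11965 and Itgb1 from -0.0025056 to 0.048588 in TMG_E2 against E2, and the Vcl interaction from -0.029657 to 0.067155. The cause of these shifts was not tested. Depth limits Itgal, at 0 to 3 counts, and Itgb3 without E2, at 13 to 22 counts. The order of the 10 genes by length-scaled level kept all 10 ranks in each group without any 1 library. It was also kept with FPKM, which differ from TPM within a library only by a common factor, so that this check could hardly differ. The α to β ratios moved by less than the replicate spread in the alternatives run.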
